A study of Mus musculus with 30 samples.

Results

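Keratin genes were examined in neural progenitor cultures of 8 mouse lines. The members were the rows of the count table whose symbol is Krt followed only by digits. This rule gave 50 of the 25400 genes in the table, 26 type I and 24 type II keratins, of which 25 lie on chromosome 11 and 25 on chromosome 15 (mm9). A further 4 rows whose symbol ends in a letter (*Krt6a*, *Krt6b*, *Krt33a* and *Krt33b*) were not members. All 50 members had a read in some library, and 28 were detected, meaning that all 3 libraries of at least 1 line held 3 or more counts.

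Keratins are the intermediate filament proteins of epithelia. A type I keratin pairs with a type II keratin to form the filament, and the filaments are anchored at desmosomes. *Krt8* and *Krt18* form the main pair of simple epithelia and are among the earliest keratins made in the embryo, where they mark trophectoderm and extraembryonic endoderm. *Krt7* and *Krt19* are found in trophoblast and other simple epithelia, *Krt5* and *Krt14* in the basal layer of stratified epithelia, and *Krt1* and *Krt10* above it, while many of the remaining members build hair and its root sheath. Neural progenitors instead rely on vimentin and nestin.

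Poly(A) RNA-seq was done on 3 libraries of each line, numbered s01 to s24 by the table. All lines derive from HA36CB1 mouse embryonic stem cells. WT cells carry no deletion, *Mbd3* KO cells had *Mbd3* disrupted with CRISPR-Cas9, and the other 6 lines are *Mbd3* KO cells with a tagged construct placed at a defined integration site under the ubiquitously active CAG promoter. MBD3 and MBD2 are alternative methyl-CpG-binding-domain subunits of the NuRD chromatin remodelling complex, and the comparisons ask which constructs return the *Mbd3* KO cultures towards WT. The constructs were MBD3a, MBD3ΔMBD, which lacks the MBD domain, MBD2a, MBD2aΔGR, which lacks the glycine-arginine stretch, MBD2aR181C, a point mutant of the MBD domain (R191C in the methods), and MBD2t, a truncated isoform. Libraries of a line came from separately derived clones, with the exception of MBD2t, whose 3 libraries are repeats of 1 clone and so hold no spread between clones.

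Library totals ran from 27993858 to 49392806 counts, and 3 counts corresponded to 0.0607 to 0.107 CPM, the counts scaled to 1000000 per library. *Mbd3* lay at 149 to 157 CPM in WT and 34.2 to 73.8 CPM in *Mbd3* KO, whose remaining reads can come from undeleted exons, and *Mbd2* ranged from 40.8 to 50.4 CPM among the WT libraries, from 64.2 to 70.9 CPM among those of *Mbd3* KO and from 67.0 to 87.2 CPM among those of MBD2a, so that the latter pair of lines overlapped, against 253 to 700 CPM in the other 3 MBD2 lines. The summed level of 9 neural progenitor markers ran from 1946 to 2718 CPM in the WT libraries, from 344 to 425 CPM in those of *Mbd3* KO, from 269 to 542 CPM in MBD2a and from 399 to 400 CPM in MBD2t, so that these 3 lines carry the neural progenitor label with lower levels of its markers. Libraries s17 and s18 of MBD2aΔGR (1686 and 1151 CPM) and s20 of MBD2aR181C (1825 CPM) also lay below the lowest WT library. The remaining libraries of those lines did not. In these bulk cultures fewer cells of a type and less RNA per cell cannot be told apart. Library s15 of MBD2a and library s18 of MBD2aΔGR stood apart from the other 2 of their line in keratin level, and results that rest on them are given with and without them.

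Summed over all 50 members, keratin transcripts reached 175, 368 and 337 CPM in the WT libraries. The *Mbd3* KO libraries held 2296, 2187 and 2945 CPM, and those of MBD2t held 1732, 1954 and 1765 CPM. All 6 lay above every WT library. MBD3a (299, 366 and 144 CPM), MBD3ΔMBD (257, 217 and 278 CPM) and MBD2aR181C (144, 212 and 155 CPM) overlapped with WT. In MBD2a 2 libraries were at 643 and 618 CPM while s15 was at 2666 CPM, within the *Mbd3* KO range. In MBD2aΔGR 2 libraries were at 183 and 177 CPM while s18 was at 866 CPM.

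**Figure D1:**
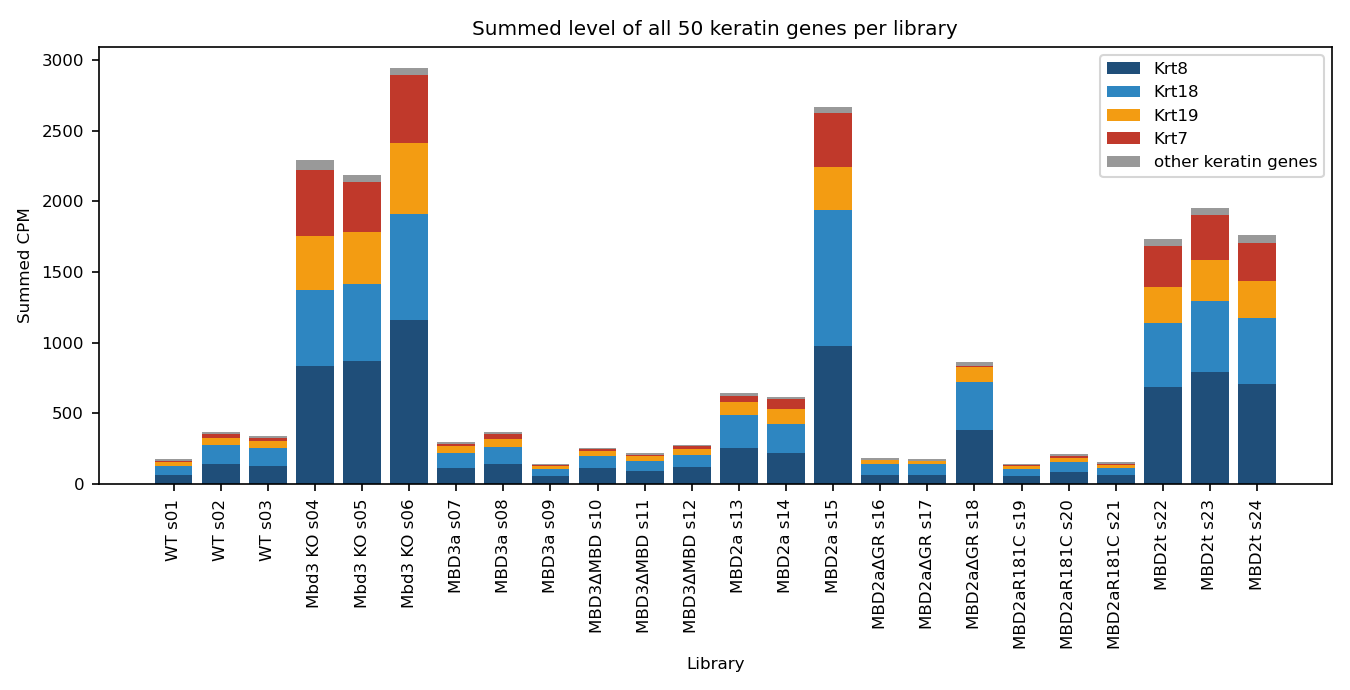
Summed CPM of all 50 keratin genes (y axis) in each of the 24 libraries (x axis), stacked by *Krt8*, *Krt18*, *Krt19*, *Krt7* and all others. The *Mbd3* KO and MBD2t libraries lie between 1732 and 2945 CPM, and s15 (2666 CPM) and s18 (866 CPM) stand above the other libraries of their lines.

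The simple epithelial keratins *Krt8*, *Krt18*, *Krt19* and *Krt7* together made up 93.5 to 98.5% of this sum in every library. Levels were divided by the length of the annotated transcript with the longest coding sequence. Averaged over the 24 libraries, *Krt8* stood at 189 CPM per kb, *Krt18* at 183, *Krt19* at 82.9 and *Krt7* at 29.5. The value of *Krt7* is uncertain because the transcript used for it is 4.09 kb. *Krt17* came next at 3.69 CPM per kb, followed by *Krt20* at 2.71 and *Krt15* at 2.38.

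Detection differed between the classes. Of the simple epithelial keratins 6 of 6 were detected, of the stratified and basal epithelial keratins 14 of 19, of the hair and root sheath keratins 5 of 22, and of the other keratins 3 of 3. By line, 14 members had 3 or more counts in all libraries of WT, 26 in *Mbd3* KO, 25 in MBD2t, 18 in MBD2a, 12 in MBD3a, 12 in MBD2aΔGR, 11 in MBD3ΔMBD and 11 in MBD2aR181C. After a filter on low counts 20 members were tested. A member that passed this filter only through a line where it is high had to differ, so the counts of called members below are descriptions and not support. This held for 7 of the 20, *Krt4*, *Krt14*, *Krt16*, *Krt75*, *Krt79*, *Krt80* and *Krt222*, which reached the level of the filter in fewer than 3 libraries outside *Mbd3* KO, MBD2t and MBD2a. Their values and fold changes, against WT or any other line, are likewise descriptions. The 30 members that were not tested reached at most 23 counts, or 0.637 CPM, in a single library. That library was s18 and the gene was *Krt13*, a keratin of internal stratified epithelia.

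**Figure D2:**
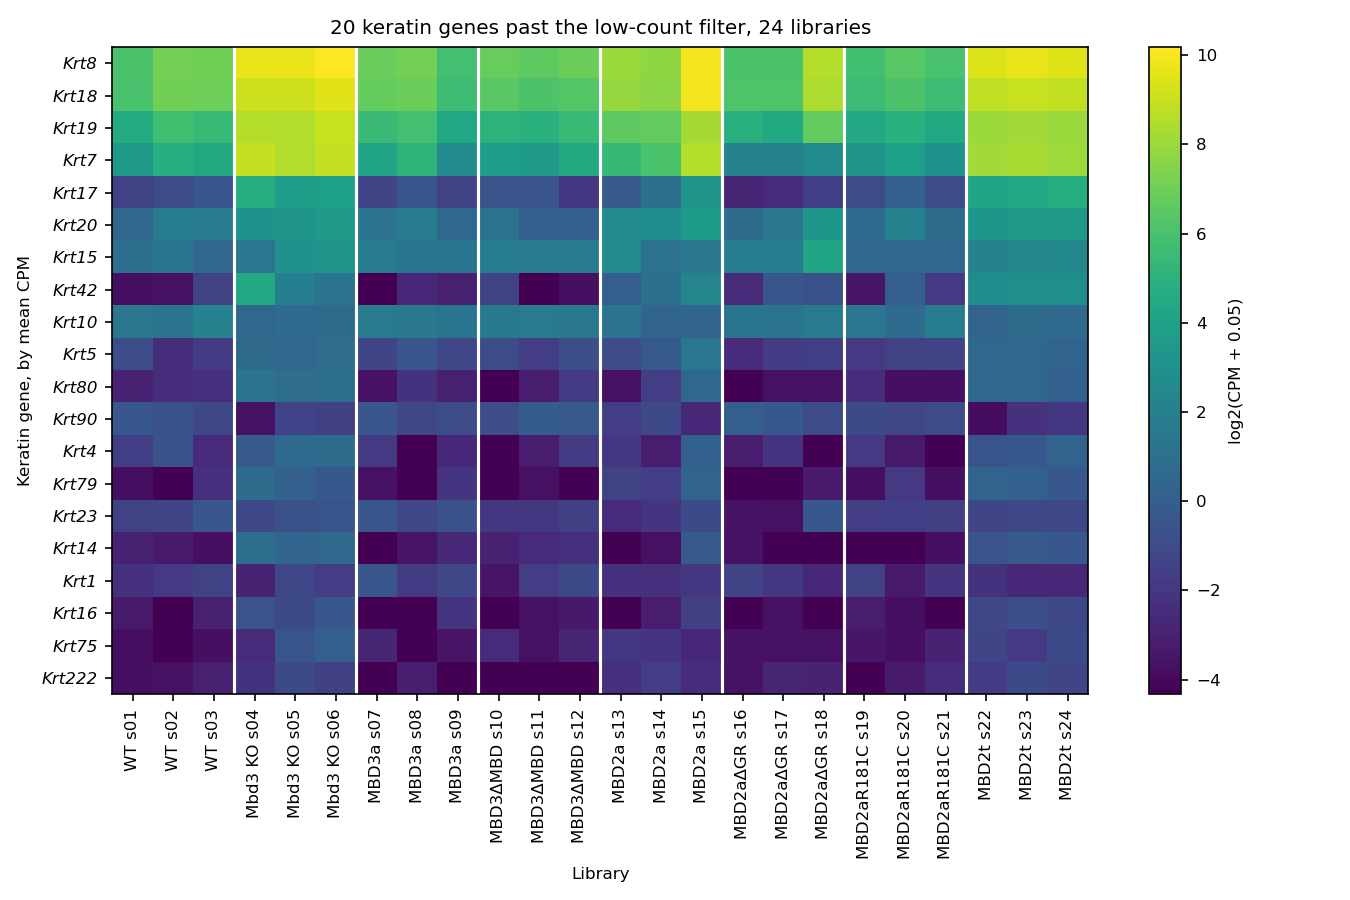
Level of the 20 tested keratin genes (rows, by mean CPM) in the 24 libraries (columns, white lines between the 8 lines), as log2 of CPM plus 0.05. The upper rows are bright in *Mbd3* KO, MBD2t and s15, and *Krt10* and *Krt90* are the rows that are darker there than in WT.

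*Krt8* and *Krt18* encode the type II and type I partners of the same filament and lie on chromosome 15 on opposite strands, *Krt8* at chr15:101827142-101834773 (minus strand) and *Krt18* at chr15:101858647-101862457 (plus strand), with 23874 bases between their 5′ ends. *Krt18* is the only type I member on that chromosome. As both stood highest per length, the 250 bases before their annotated starts on mm9 (chr15:101834774-101835023 and chr15:101858397-101858646, each in its gene's direction) are shown here, with CpG dinucleotides in capitals since the lines differ in methyl-CpG-binding-domain proteins.
Krt8: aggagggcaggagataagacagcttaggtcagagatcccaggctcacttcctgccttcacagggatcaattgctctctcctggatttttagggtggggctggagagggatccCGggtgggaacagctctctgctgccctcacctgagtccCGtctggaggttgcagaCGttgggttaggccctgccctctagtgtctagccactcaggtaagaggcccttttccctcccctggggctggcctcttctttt
Krt18: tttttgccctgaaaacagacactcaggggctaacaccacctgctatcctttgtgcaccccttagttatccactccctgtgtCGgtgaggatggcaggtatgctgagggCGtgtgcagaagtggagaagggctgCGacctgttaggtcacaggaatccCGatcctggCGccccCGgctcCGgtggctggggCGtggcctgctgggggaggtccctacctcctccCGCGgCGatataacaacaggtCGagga
The *Krt8* window held 3 CpGs and 58.0% G or C, and the *Krt18* window 12 CpGs and 60.4%. Over 22362 windows of the same length the median was 8 CpGs, 75.4% of windows held at least as many as *Krt8*, and 41.2% at least as many as *Krt18*. Across the 50 members the counts ran from 0 in *Krt7* to 21 in *Krt87*, with a median of 3.5, and 8 members reached the median of all windows. The motif GCCNNNGGC, the core of the AP-2 site, occurred once in the *Krt18* window, starting 83 bases before the start (14.8% of all windows hold it on either strand), and not in that of *Krt8*. The TATA box TATAAA, searched on both strands like the others, was in neither window (12.3% of all windows hold it). Neither window held the GC box GGGCGG, found in 39.6% of all windows, and the same was true of the AP-1 site TGANTCA, found in 6.01% of them. A 1734 bp stretch elsewhere in the genome, at chr7:24142113-24143830 within *Nlrp4e*, is 97.9% identical to the *Krt8* transcript. Reads of *Krt8* are thus uncertain to the extent that the authors' counting could split them. Shorter stretches of *Krt14* recur in *Krt17* (159 bp, 96.2%) and of *Krt17* in *Krt14* (163 bp, 95.7%). *Krt16* has copies in the pseudogene *Gm11597* (230 bp, 97.8%, and 164 bp, 100%), and *Krt5* in *Krt6a* and *Krt6b* (239 bp, 97.1%). A further copy of *Krt5* lies at chr15:101477239-101477477 (239 bp, 97.9%), where no gene is annotated. Reads of these members carry the same uncertainty.

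The 3 WT libraries had *Krt8* at 66.6, 140 and 130 CPM, and those of *Mbd3* KO at 833, 872 and 1161 CPM. MBD2t was at 689, 793 and 708 CPM, MBD2a at 252, 222 and 979 CPM, and MBD2aΔGR at 66.9, 66.7 and 380 CPM. The *Mbd3* KO, MBD2t and MBD2a libraries did not overlap with WT, whereas MBD3a (116, 143 and 57.4 CPM), MBD3ΔMBD (112, 95 and 119 CPM) and MBD2aR181C (55.3, 85.3 and 63.5 CPM) did. In order of their means the lines ran from *Mbd3* KO (955 CPM) over MBD2t (730 CPM), MBD2a (484 CPM) and MBD2aΔGR (171 CPM) to WT (112 CPM), followed by MBD3ΔMBD (109 CPM), MBD3a (106 CPM) and MBD2aR181C (68.0 CPM). Apart from *Mbd3* KO and MBD2t every pair of neighbours in that order overlapped.

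*Krt18* was at 64.4, 134 and 125 CPM in WT, at 539, 546 and 751 CPM in *Mbd3* KO, and at 450, 500 and 469 CPM in MBD2t. MBD2a held 236, 205 and 963 CPM, so that s15 exceeded every *Mbd3* KO library. The pair was not scaled by the same factor in every line. The ratio of *Krt8* to *Krt18*, both as CPM per kb, was 0.802 to 0.809 in WT, 1.20 to 1.24 in *Mbd3* KO and 1.17 to 1.23 in MBD2t, but 0.788 to 0.838 in MBD2a, including s15. It was 0.841 to 0.926 in MBD3a, 0.992 to 1.11 in MBD3ΔMBD, 0.709 to 0.865 in MBD2aΔGR and 0.862 to 0.963 in MBD2aR181C. These ratios are given without a test.

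*Krt19*, a small type I keratin of simple epithelia, was at 24.4, 55.4 and 46.2 CPM in WT and at 381, 363 and 500 CPM in *Mbd3* KO. *Krt7*, its type II counterpart in trophoblast and glandular epithelia, was at 10.9, 27.6 and 22.6 CPM in WT and at 472, 359 and 481 CPM in *Mbd3* KO. Neither overlapped between those lines. In MBD2t *Krt19* was at 256, 289 and 259 CPM and *Krt7* at 288, 317 and 271 CPM. In MBD2a *Krt19* was at 95.1, 106 and 299 CPM and *Krt7* at 41.6, 67.2 and 385 CPM, with s15 again highest. *Krt7* thus stood at 16.4 to 19.7% of the *Krt8* CPM in WT and at 41.2 to 56.6% in *Mbd3* KO, which is a description across libraries and was not tested.

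**Figure D3:**
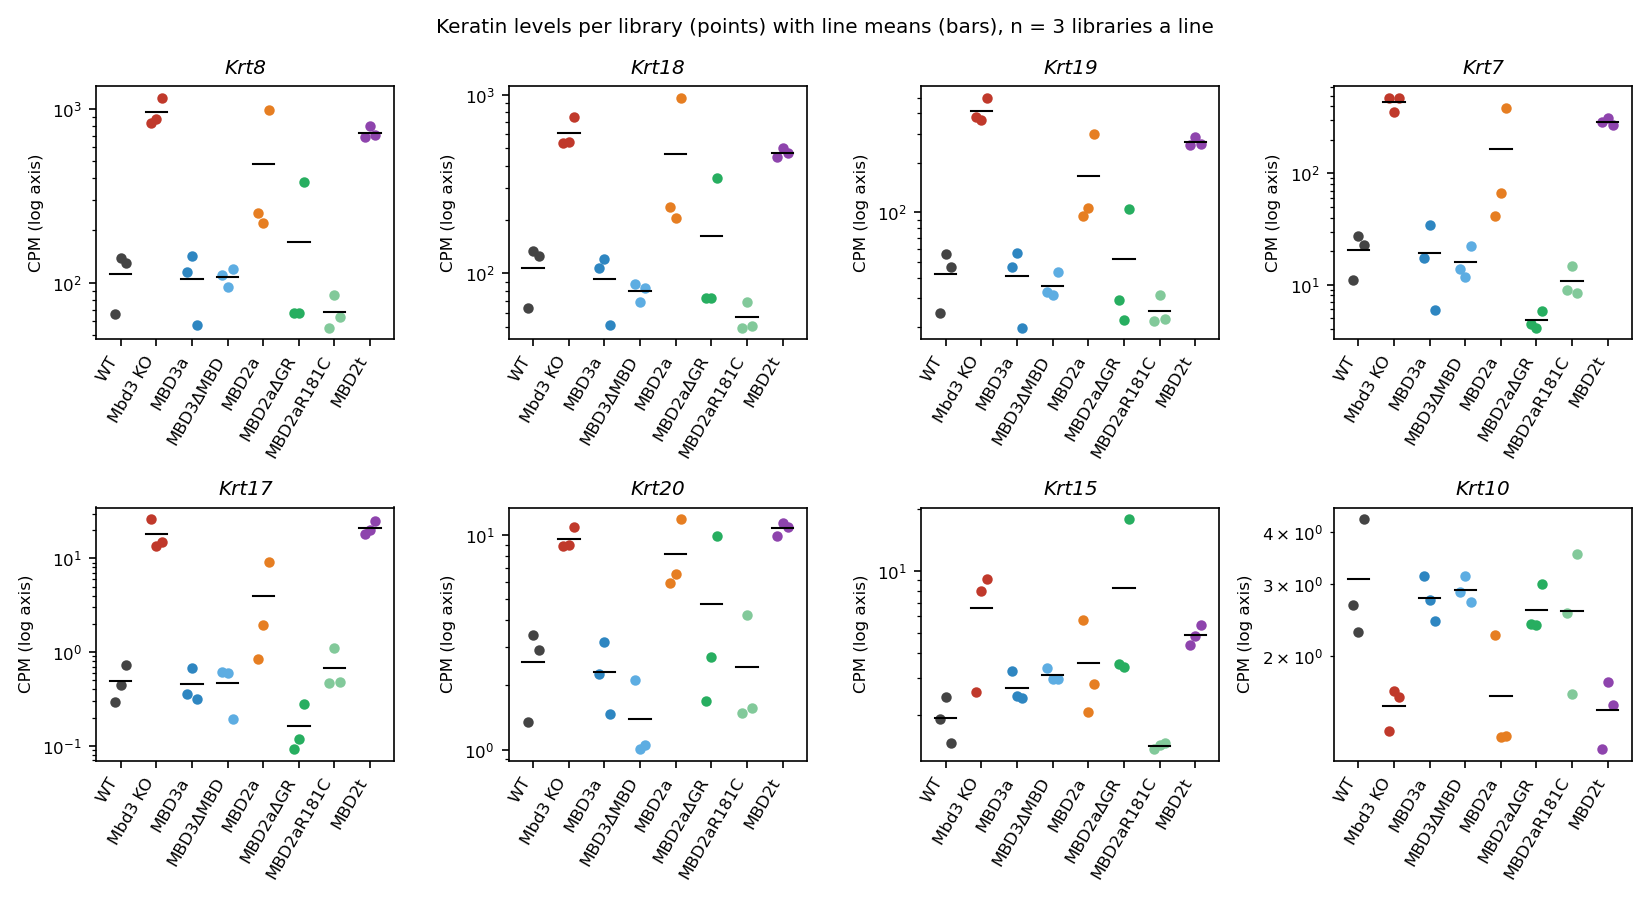
CPM of 8 keratin genes (log y axes) in the 8 lines (x axes), with 3 libraries a line as points and the line mean as a bar. *Krt8*, *Krt18*, *Krt19*, *Krt7*, *Krt17* and *Krt20* are higher in every *Mbd3* KO and MBD2t library than in every WT library, and *Krt10* is lower.

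*Mbd3* KO was compared with WT to ask what loss of MBD3 does to the keratins of the cultures. Of the 20 tested members 16 were higher and 2 lower, and 18 did not overlap between the lines. Across all 16582 tested genes 33.8% were called, 19.6% higher and 14.2% lower, and 62.2% did not overlap. A gene was called when the Benjamini-Hochberg adjusted p of edgeR's quasi-likelihood test was under 0.05 and the absolute log2 fold change exceeded 1. The median log2 fold change of the tested members was 2.90, against -0.03 over all tested genes.

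Among the simple epithelial keratins 5 of 6 rose. *Krt8* rose by 3.09 ± 0.62 on the log2 scale (SE, adjusted p = 0.00032, edgeR), *Krt18* by 2.50 ± 0.58 (adjusted p = 0.0011) and *Krt19* by 3.30 ± 0.54 (adjusted p = 4.5e-05). *Krt7* rose most of this class, by 4.42 ± 0.69 (adjusted p = 2.8e-05), a ratio of line means of 21.5. *Krt20*, a keratin of intestinal epithelium, went from 1.34, 3.41 and 2.92 CPM in WT to 8.86, 8.99 and 10.9 CPM, a rise of 1.90 ± 0.51 (adjusted p = 0.0037). *Krt23* was not called (log2 fold change 0.24 ± 0.52, adjusted p = 0.71).

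Of the stratified and basal keratins 19 were members, 11 were tested, and 9 of these rose. *Krt17*, a keratin of basal and activated epithelium, went from 0.295, 0.440 and 0.730 CPM in WT up to 26.4, 13.5 and 15.1 CPM. *Krt42*, its neighbour in the genome, went from 0.0268, 0.0275 and 0.317 CPM to 21.4, 3.78 and 2.25 CPM, with s04 far above the other 2 libraries. These were the largest rises of the tested members in log2 units, 5.20 ± 0.65 and 6.08 ± 0.97 (adjusted p = 2.8e-06 and 1.6e-05, edgeR).

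The basal pair *Krt5* and *Krt14* was low throughout. *Krt5* was at 0.483, 0.138 and 0.243 CPM in WT and at 1.57, 1.39 and 1.75 CPM in *Mbd3* KO, and *Krt14* at 0.0805, 0.0550 and 0.0243 CPM and at 1.83, 1.26 and 1.38 CPM. *Krt5* rose by 2.43 ± 0.50 on the log2 scale (adjusted p = 0.00043, edgeR). *Krt14*, whose WT libraries had 3, 2 and 1 counts, passed the filter only through lines where it is high, so no test is given for it and the size of its difference is poorly fixed. *Krt15*, another basal keratin, was at 1.91, 2.42 and 1.46 CPM in WT and at 2.57, 7.99 and 9.10 CPM in *Mbd3* KO (log2 fold change 1.78 ± 0.56, adjusted p = 0.010), with s04 just above WT.

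*Krt80*, a type II keratin of differentiating epithelia, went from 0.0805, 0.138 and 0.146 CPM to 2.23, 1.79 and 1.85 CPM. *Krt79*, which marks sebaceous ducts, went from 0.0268, 0 and 0.146 CPM to 1.69, 1.04 and 0.741 CPM, and *Krt4*, of internal stratified epithelia, from 0.268, 0.550 and 0.122 CPM to between 0.829 and 1.72 CPM. The fitted log2 differences were 3.96 ± 0.61, 4.16 ± 0.77 and 2.14 ± 0.63, given without a test for the same reason, and *Krt4* was not called with DESeq2 or with edgeR's legacy quasi-likelihood test. *Krt16*, a partner of the wound-induced keratins, differed by 3.61 ± 0.76, and *Krt222*, a keratin-like gene outside the classical pairs, by 2.71 ± 0.68. *Krt75*, the 1 tested hair keratin, had 4, 28 and 36 counts in the *Mbd3* KO libraries, 68 together, and 2 in WT. The pooled ratio was 33.1 with a 95% counting interval of 8.81 to 278, which leaves out the spread between clones. *Krt75* likewise passed the filter only through lines where it is high.

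Members that moved the other way were few. *Krt10*, the suprabasal type I keratin, was at 2.66, 2.28 and 4.31 CPM in WT and at 1.32, 1.64 and 1.59 CPM in *Mbd3* KO, and fell by 1.03 ± 0.29 on the log2 scale (adjusted p = 0.0049, edgeR). This is just past the fold threshold, and it was not called without s03 (-0.70) or s04 (-0.94), with other scaling factors (-0.97), with the 2 lines alone (-0.995) or with DESeq2 (-0.97). *Krt10* also overlaps the antisense gene *Gm11940*, and whether the counting used the strand is not given in the sources used here. *Krt90* was at 0.725, 0.578 and 0.390 CPM in WT and at 0.0286, 0.332 and 0.291 CPM in *Mbd3* KO (-1.29 ± 0.52, adjusted p = 0.038), and it was not called without s01, s02 or s04, nor with DESeq2. *Krt1*, the type II partner of *Krt10*, was not called (0.10 ± 0.56, adjusted p = 0.88).

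**Figure D4:**
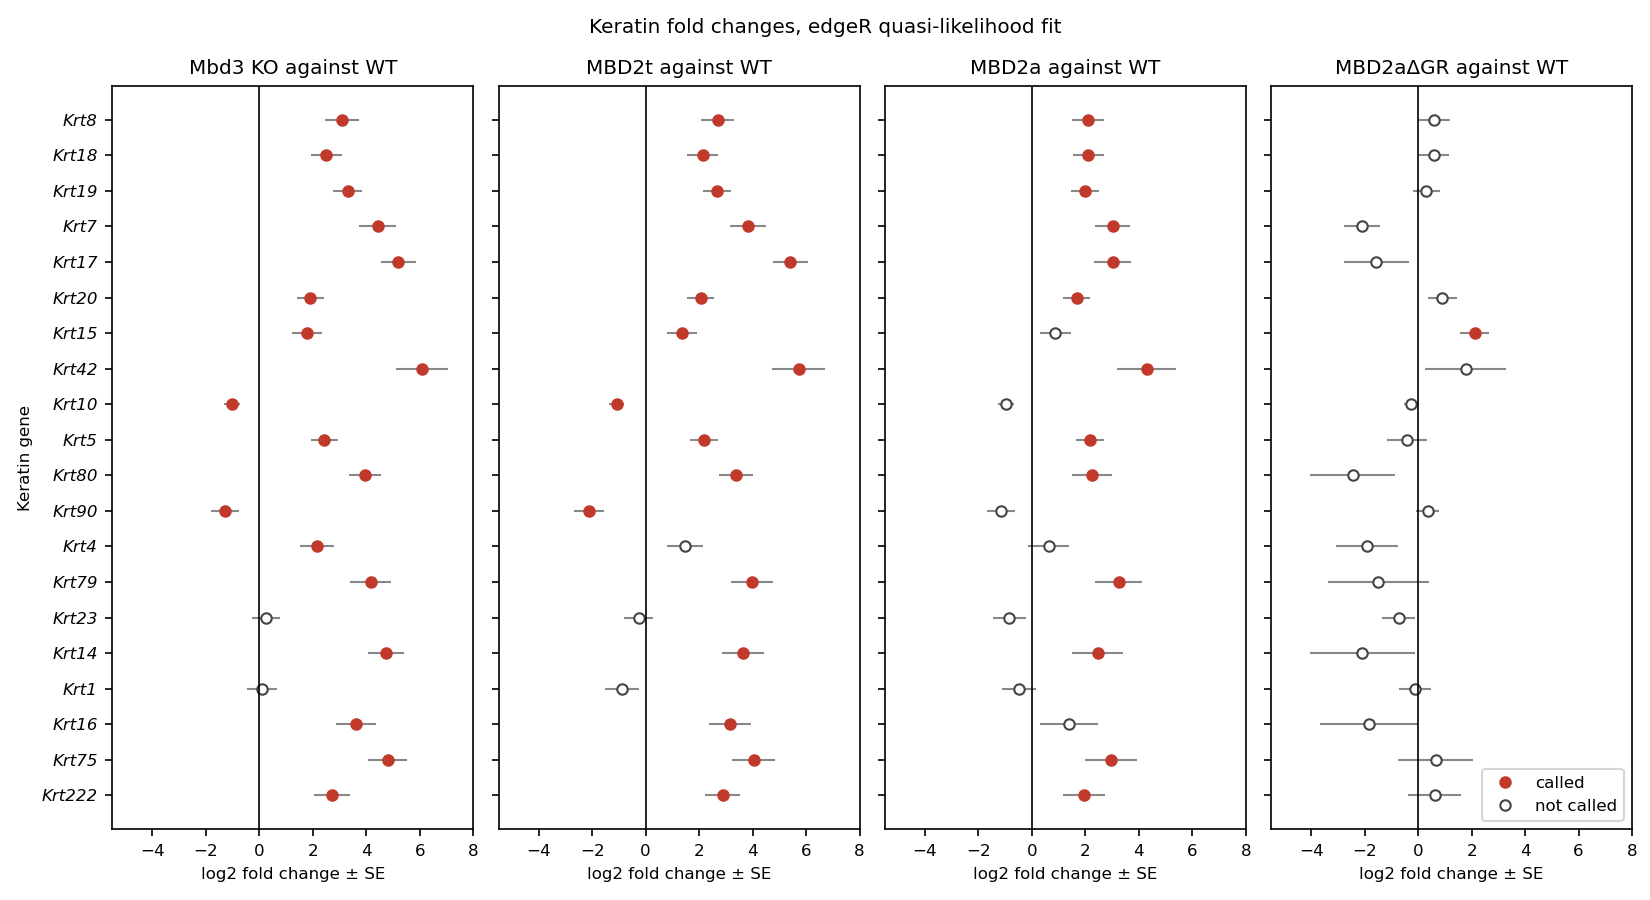
Log2 fold change ± SE (x axes) of the 20 tested keratin genes (y axis, by mean CPM) in *Mbd3* KO, MBD2t, MBD2a and MBD2aΔGR against the same 3 WT libraries, filled where called. *Mbd3* KO has 18 called members, MBD2t 17, MBD2a 13 and MBD2aΔGR 1.

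Genes that work with keratins were counted from lists, beside 19.6% of all tested genes called higher and 14.2% lower in *Mbd3* KO against WT. Desmosome genes, which tie keratin filaments to the membrane, rose in 12 of 13 tested members in *Mbd3* KO against WT and fell in none, with a median log2 fold change of 2.13. The plakophilin *Pkp3* went from 3.91 ± 1.11 CPM (SD, n = 3) to 58.1 ± 7.04 CPM and the plakin *Ppl*, which binds keratin at desmosomes, from 13.6 ± 3.67 to 111 ± 12.4 CPM. Epithelial adhesion and tight junction genes rose in 12 of 13 (median 2.01), among them *Cdh1*, encoding E-cadherin, at 56.2, 138 and 107 CPM in WT and 820, 574 and 535 CPM in *Mbd3* KO.

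Epithelial transcription and splicing regulators rose in 10 of 11 and fell in 1, with a median of 2.51. *Tfap2c*, encoding AP-2γ of trophoblast and surface ectoderm, went from 4.56, 9.90 and 19.4 CPM to 195, 125 and 145 CPM, and *Tfap2a*, its relative of surface ectoderm and neural crest, was the 1 that fell (-3.32 ± 0.59 on the log2 scale, adjusted p = 9.8e-05, edgeR). The non-keratin intermediate filament genes went differently from the keratins, with 2 of 13 higher, 5 lower and a median of -0.55. Over all tested genes 19.6% were called higher and 14.2% lower. *Vim*, encoding vimentin, was at 1176, 1021 and 967 CPM in WT and at 21.8, 98.1 and 92.7 CPM in *Mbd3* KO, and the neuronal filament genes *Ina*, *Nefm* and *Nefl* fell, with log2 fold changes of -4.36 ± 0.61, -3.81 ± 0.72 and -3.32 ± 0.57.

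Markers of other cell types were counted in the same way, beside the same 19.6% of all tested genes called higher and 14.2% lower. Of 9 trophoblast markers other than *Krt7*, 9 rose in *Mbd3* KO against WT, and their summed level was 19.6 to 47.4 CPM in WT and 484 to 618 CPM in *Mbd3* KO. Of 10 primitive endoderm markers 1 rose (summed 184 to 267 CPM and 135 to 403 CPM). Of 5 surface ectoderm and epidermis markers other than keratins 4 rose and 1 fell (summed 25.7 to 74.3 CPM and 25.1 to 57.8 CPM), and of 8 pluripotency markers 8 rose (summed 26.0 to 180 CPM and 358 to 1083 CPM). The surface ectoderm list shares *Trp63*, *Tfap2a* and *Grhl3* with the regulators above, and the trophoblast list shares *Tfap2c*. Of the markers measured, those other than *Krt14* and *Dsg3* had reads in all 24 libraries, and the part of these cell types in the keratin levels was not tested.

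MBD3a, MBD3ΔMBD and MBD2aR181C gave keratin levels that were not called different from WT. Each had 0 of 20 tested members called with edgeR's quasi-likelihood test, and 0, 1 and 0 members had an unadjusted p under 0.05. Over all tested genes 0%, 0.0181% and 0.0181% were called, and 1.77%, 7.16% and 3.95% had an unadjusted p under 0.05. For *Krt8* in MBD3a the difference from WT was -0.09 ± 0.58 and for *Krt7* -0.07 ± 0.63 (log2, SE). With SEs of this size, shifts well above the SE could also go uncalled, so these lines are not shown to equal WT.

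Against *Mbd3* KO, MBD3a had 15 of 20 tested members lower and none higher, where 32.4% of all tested genes were called and 18.9% were lower. *Krt42* was at 0, 0.103 and 0.0694 CPM in MBD3a, *Krt17* at 0.359, 0.684 and 0.312 CPM and *Krt7* at 17.5, 34.5 and 5.97 CPM. The log2 differences were -3.18 ± 0.63 for *Krt8*, -2.72 ± 0.59 for *Krt18* and -4.50 ± 0.70 for *Krt7* (edgeR adjusted p = 0.00029, 0.00064 and 2.9e-05). *Krt15* was not called (-1.28 ± 0.55, adjusted p = 0.053), nor were *Krt1*, *Krt10*, *Krt23* and *Krt90*. The desmosome genes were lower in 12 of 13 and the adhesion genes in 13 of 13. This comparison shares the *Mbd3* KO libraries with the one before.

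MBD2t, which shares the WT libraries, had 15 of 20 tested members higher and 2 lower, where 33.4% of all tested genes were called, 18.2% higher and 15.1% lower. Its members had log2 fold changes of 2.70 for *Krt8*, 2.13 for *Krt18*, 2.67 for *Krt19*, 3.84 for *Krt7* and 5.41 for *Krt17*, beside 3.09, 2.50, 3.30, 4.42 and 5.20 in *Mbd3* KO. *Krt42* was at 6.57, 7.18 and 7.36 CPM and *Krt14* at 0.603, 0.769 and 0.728 CPM in MBD2t, both above WT. *Krt4* was not called (1.48 ± 0.67, adjusted p = 0.061), while *Krt10* (-1.08 ± 0.29) and *Krt90* (-2.12 ± 0.57) fell. *Krt10* was not called without s03 (-0.76) or s22 (-0.95), and *Krt15* was called with all libraries but not when any 1 library of either line was left out (adjusted p = 0.0565 to 0.130, edgeR). MBD2t and *Mbd3* KO were not tested against each other, and the MBD2t libraries being repeats of 1 clone, their narrow spread does not cover clones. Trophoblast markers rose in 9 of 9 (summed 487 to 506 CPM), pluripotency markers in 8 of 8 (summed 617 to 776 CPM) and desmosome genes in 12 of 13.

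MBD2a had 13 of 20 tested members higher than WT and none lower, where 30.6% of all tested genes were called and 16.9% were higher. *Krt8* rose by 2.11 ± 0.60, *Krt18* by 2.12 ± 0.57, *Krt19* by 1.99 ± 0.52 and *Krt7* by 3.02 ± 0.65 in log2 units (edgeR adjusted p = 0.0060, 0.0043, 0.0032 and 0.00078). These values rest in part on s15, in which *Krt17* was at 9.23 CPM against 0.835 and 1.94 CPM, *Krt14* at 0.815 CPM against 0 and 0.0295 CPM, and *Krt80* at 1.40 CPM against 0.0288 and 0.265 CPM in the other 2 libraries.

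Without s15 7 members were called, where 26% of all tested genes were. They were *Krt5* (1.16), *Krt7* (1.43), *Krt17* (1.49), *Krt19* (1.27), *Krt42* (3.45) and *Krt222* (2.15, all log2), with *Krt75*, which had 2 counts in WT. *Krt8* (1.09, adjusted p = 0.10, edgeR) and *Krt18* (1.04, adjusted p = 0.087) were then no longer called, although both remaining libraries lay above every WT library. *Krt14* then had 0 and 0.0295 CPM, below the detection floor, so no fold is given here. Trophoblast markers were summed at 115 and 153 CPM in those libraries and at 274 CPM in s15, and *Hand1*, a regulator of trophoblast giant cells, was at 1.15, 3.03 and 20.5 CPM. Primitive endoderm markers were summed at 819 and 148 CPM and at 707 CPM in s15, and pluripotency markers at 423 and 623 CPM and at 763 CPM in s15. The part of these cell types in the keratin level of s15 was not tested.

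Against *Mbd3* KO, MBD2a had 5 of 20 tested members lower, where 5.25% of all tested genes were called and 4.4% were lower. These were *Krt14* (-2.28 ± 0.49), *Krt16* (-2.22 ± 0.62), *Krt17* (-2.16 ± 0.50), *Krt75* (-1.84 ± 0.46) and *Krt80* (-1.71 ± 0.45), 4 stratified or basal keratins and 1 hair keratin. Of these *Krt14*, *Krt16*, *Krt75* and *Krt80* passed the low-count filter only through lines where they are high, so their differences are descriptions. The SE of *Krt14* does not cover the spread between the MBD2a libraries, as its difference was -6.38 without s15. The same 4 were not called with DESeq2 (adjusted p = 0.127 to 0.215) or with the legacy quasi-likelihood test. With only the 2 lines in the fit none of the 5 was called. Of the 6 simple epithelial keratins none was called, with *Krt7* at -1.41 ± 0.61 (adjusted p = 0.17, edgeR) and *Krt18* at -0.39 ± 0.55 (adjusted p = 0.74). Without s15 12 members were lower, where 7.69% of all tested genes were called, and *Krt7* (-3.02), *Krt8* (-2.02) and *Krt19* (-2.06) were among them. Without s13 3 members were called, where 3.38% of all genes were, and without s14 2, where 3.13% were.

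In MBD2aΔGR many keratins were lower than in MBD2a. Against MBD2a, 10 of 20 tested members were lower and 1, *Krt90*, was higher, where 18.6% of all tested genes were called, 10.6% lower and 8.02% higher. *Krt7* was at 4.39, 4.11 and 5.84 CPM in MBD2aΔGR, below every WT library, and fell by 5.10 ± 0.74 on the log2 scale against MBD2a (adjusted p = 7.1e-05, edgeR). *Krt17* was at 0.0921, 0.119 and 0.277 CPM and fell by 4.59 ± 0.87 (adjusted p = 0.00063). *Krt8* was not called (-1.5 ± 0.59, adjusted p = 0.054), but it was with DESeq2 (adjusted p = 0.0234), with s18 at 380 CPM above 2 of the 3 MBD2a libraries. Without s18 12 members were called, where 22.9% of all genes were, and *Krt8* fell by 2.86. Without s15 5 members were called, where 13.6% of all genes were, and *Krt7* (-3.51), *Krt17* (-3.04) and *Krt5* (-1.57) were among them. Without s16 7 members were called, where 13.2% of all genes were. *Mbd2* was at 280 to 700 CPM in MBD2aΔGR against 67.0 to 87.2 CPM in MBD2a, and its part in the difference was not tested.

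Against WT, MBD2aΔGR had 1 of 20 tested members called, where 5.16% of all tested genes were called. This was *Krt15*, at 3.50, 3.40 and 17.8 CPM against 1.91, 2.42 and 1.46 CPM (log2 fold change 2.11 ± 0.56, adjusted p = 0.028, edgeR). Without s18 *Krt15* was at 0.84 (adjusted p = 0.42) and the 1 called member was *Krt23* instead (adjusted p = 0.018), at 0.0307 and 0.0298 CPM, or under 3 counts, in both remaining libraries, where 0.722% of all genes were called. Without s01, s02 or s03 of WT 0 members were called with edgeR, where 1.08%, 1.5% and 6.68% of all genes were. *Krt7* was not called against WT (-2.09 ± 0.68, adjusted p = 0.061), but it was with DESeq2 (-2.10, adjusted p = 0.0097).

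Library s18 had an unequal set of keratins. Beside the other 2 libraries of its line, *Krt8* (380 CPM against 66.9 and 66.7), *Krt18* (341 against 72.6 and 72.9), *Krt19* (105 against 29.1 and 22.1), *Krt20* (9.89 against 1.69 and 2.71) and *Krt23* (0.720 against 0.0307 and 0.0298) were high in it. So were the stratified keratins *Krt15* (17.8 CPM against 3.50 and 3.40) and *Krt13* (0.637 against 0.0614 and 0.0298), while *Krt17* was at 0.277 CPM against 0.0921 and 0.119 CPM, from 10, 3 and 4 counts. *Krt7* was closer to the other 2 libraries (5.84 CPM against 4.39 and 4.11), *Krt42* lay between them (0.554 CPM against 0.123 and 0.685), and *Krt14* had no read. *Krt7* stood at 1.54% of the *Krt8* CPM in s18, against 39.4% in s15 of MBD2a. The share was also low in the other 2 libraries of the MBD2aΔGR line, at 6.57% in s16 and 6.16% in s17. Outside that line the lowest share was 10.4%, in s09 of MBD3a. Primitive endoderm markers were summed at 3767 CPM in s18 against 389 and 290 CPM in the other 2 libraries, and *Gata4*, a regulator of that lineage, was at 291 CPM against 12.9 and 12.8 CPM. Trophoblast markers were summed at 60.2 CPM against 24.5 and 45.3 CPM and pluripotency markers at 387 CPM against 71.6 and 196 CPM. Neural progenitor markers were lower in s18, summed at 1151 CPM against 2373 and 1686 CPM. The part of these cell types in the keratins of s18 was not tested.

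**Figure D5:**
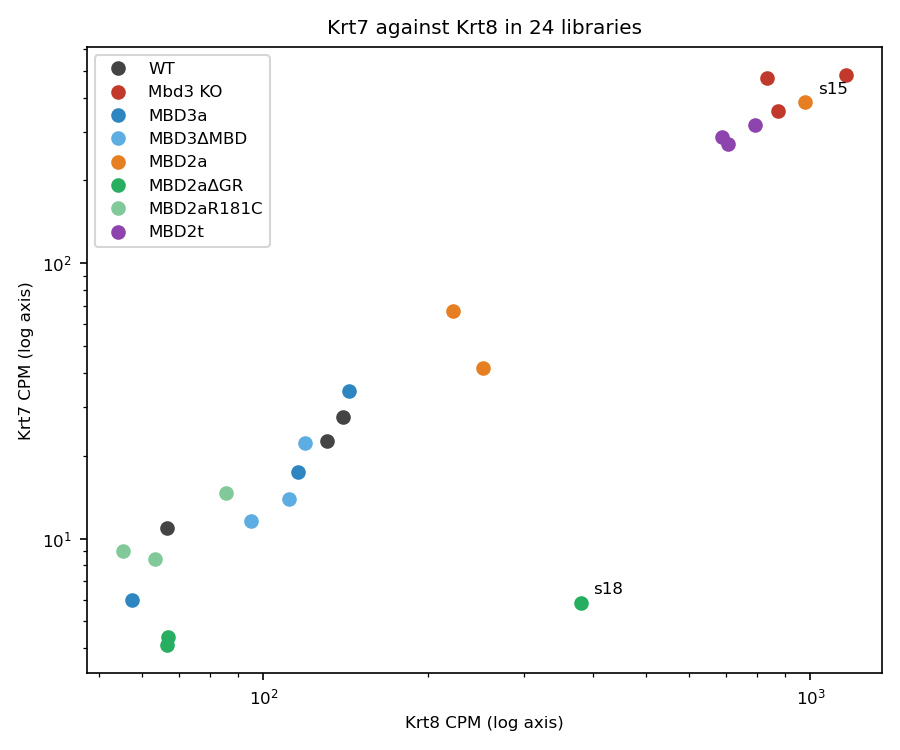
*Krt7* CPM (log y axis) against *Krt8* CPM (log x axis) in the 24 libraries, coloured by line. Library s15 of MBD2a lies among the *Mbd3* KO libraries, at 979 CPM of *Krt8* and 385 CPM of *Krt7*. Library s18 of MBD2aΔGR is at 380 and 5.84 CPM. Its *Krt7* lies far below that of the libraries next to it in *Krt8*, s13 (252 and 41.6 CPM) and s22 (689 and 288 CPM).

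MBD2aR181C, which shares the MBD2a libraries with the previous comparison, had 11 of 20 tested members lower than MBD2a and none higher, where 27.3% of all tested genes were called and 15.1% were lower. The log2 differences were -3.95 ± 0.69 for *Krt7*, -3.04 ± 0.59 for *Krt18*, -2.83 ± 0.62 for *Krt8* and -2.73 ± 0.53 for *Krt19* (edgeR adjusted p = 0.00014, 0.00040, 0.0010 and 0.00040). Without s15 5 members were called, where 22% of all genes were, and these were *Krt5*, *Krt7*, *Krt8*, *Krt18* and *Krt19*, at -1.20, -2.35, -1.81, -1.96 and -2.00. *Mbd2* was at 253 to 325 CPM in MBD2aR181C, above MBD2a, and its part in the difference was not tested. The desmosome genes were lower in 10 of 13 and the adhesion genes in 13 of 13. MBD2aΔGR and MBD2aR181C were not tested against each other, and their *Krt7* values, 4.39, 4.11 and 5.84 CPM beside 8.98, 14.7 and 8.44 CPM, did not overlap.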

How the data were processed

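Poly(A) RNA of neural progenitor cultures was measured in 24 libraries. Per the labels and the study's methods, the authors trimmed single-end reads with Trim Galore, aligned them with STAR to mm9 and counted them per gene with QuasR, and deposited the resulting raw counts. How the counting treated strand and reads with several matches is not given in the sources used here. The deposited columns name the point mutant R64C, the labels R181C and the methods R191C, and the library columns carry no replicate number. The ChIP samples of the study were not analysed here.

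Low-count genes were removed with filterByExpr, which left 16582, library sizes were scaled by TMM, and lines were compared by the quasi-likelihood test of edgeR 4.0.16 in R 4.3.3 (glmQLFit with legacy=FALSE, line as the only factor, all libraries in 1 fit). A call required a Benjamini-Hochberg adjusted p under 0.05 and a log2 fold change beyond 1 in either direction. CPM used TMM-scaled library sizes. CPM per kb used the length of the GENCODE transcript with the longest coding sequence on mm9. Intervals and floors cover counting error only. The SE printed with a fold change was worked back from that fold change and its quasi-likelihood test result. It was not estimated separately, and for members with few counts it can understate the spread between libraries. The fit was also run on counts simulated from the levels and spread of these data. It recovered 168 of 199 changed genes and called 9 unchanged genes. Promoter windows were read from the mm9 genome, and transcripts were searched against it for copies of at least 150 bases and 95% identity.

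The members and gene lists were chosen with earlier results of these data known. Named with values in every library were members with a mean of at least 1 CPM in a line, and named by value those called in any comparison. Of the other lists, the members with the largest fold change in *Mbd3* KO were named, and *Hand1* and *Gata4* were chosen after their values were seen. Alternatives were RLE factors, no filter, DESeq2 1.42.0, a fit of only the 2 lines, no fold threshold, leaving out each library, and edgeR's legacy quasi-likelihood test, which was added after the data had been seen.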

Additional observations from a re-analysis of the deposited data

How the results depend on the processing

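Of 66 recomputed counts of called keratin genes with another test, filter, scaling, threshold or set of lines, 59 stayed within 1.5 times the reported count. With only the 2 lines in the fit the count was 8 for MBD2a against WT, 0 for MBD2aΔGR against WT, 0 for MBD2a against *Mbd3* KO and 2 for MBD2aΔGR against MBD2a. With DESeq2 it was 2 for MBD2aΔGR against WT and 1 for MBD2a against *Mbd3* KO, and with the legacy quasi-likelihood test 1 for the latter. The fit of 2 lines rests on fewer libraries and repeats the low-count filter on them, so that members can drop out of the test. The cause of the other shifts was not tested. Leaving out each library in turn gave 17 to 19 called members for *Mbd3* KO against WT, 0 to 0 for MBD3a, MBD3ΔMBD and MBD2aR181C, 7 to 15 for MBD2a, 0 to 1 for MBD2aΔGR and 16 to 18 for MBD2t, 15 to 17 for MBD3a against *Mbd3* KO, 2 to 12 for MBD2a against *Mbd3* KO, and 5 to 14 for both MBD2aΔGR and MBD2aR181C against MBD2a. Of 1076 recomputed fold changes of called members 969 kept direction and call, 106 kept direction only, and 1 turned, *Krt14* in MBD2a against WT without s15 (-1.63, against up to 3.02 when another library is left out), where the remaining libraries hold at most 1 read. The 969 include the setting without a fold threshold, which reuses the main fit and cannot lose a call. Members that dropped out of a refit are not among the 1076. Of the 546 values that left out 1 library, 480 kept direction and call and 65 kept direction only. With library size in place of TMM, the mean summed keratin level of MBD2t was 1951 CPM. No paired analysis was possible because the library columns carry no replicate number. With 3 libraries a line, low members such as *Krt14*, *Krt16* and *Krt75* were limited by a few counts.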
